A study of Homo sapiens with 12 samples.

Results

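The genes of 7 subunits of the GABA-A receptor (GABRA2, GABRA3, GABRA4, GABRA5, GABRB1, GABRB2 and GABRD) were followed in U87 cells, an established human glioblastoma line, on Affymetrix Human Gene 1.0 ST arrays. A transcript cluster, the array's unit for a gene, was taken for a subunit when the subunit was the only gene named for it. Each of the 7 genes had 1 such cluster, so 7 of the 19460 clusters with 1 gene name are described, and 21214 clusters with any gene name entered the tests. The 12 arrays came from 4 treatments of 72 h, each with 3 arrays that the labels number 1 to 3 as biological replicates. These were the vehicle (V), allopregnanolone (3α-THP, 10 nM), its precursor progesterone (P4, 10 nM) and finasteride (F, 100 nM), an inhibitor of 5α-reductase, the enzyme that starts the conversion of progesterone to allopregnanolone. All cells had been moved to medium with charcoal-stripped serum 24 h earlier. The vehicle was DMSO, given as 0.1% in one place of the labels and as 10% in another. The study's methods give it as 0.1%. All arrays come from 1 cell line, and the dose of F differs from that of the other steroids.

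GABA-A receptors are chloride channels opened by GABA, the main inhibitory transmitter of the adult brain, and each channel is put together from several subunits of different classes. Alpha and beta subunits form the site where GABA binds, and a gamma or delta subunit usually completes the channel and helps to set where on the cell it sits. 3α-THP is known to bind these receptors directly and to strengthen the response to GABA, and receptors with the δ subunit are known for a strong response to such neurosteroids. Among the genes described here, the α2, α3 and α5 subunits are typical of receptors that also respond to benzodiazepines, whereas the α4 and δ subunits occur together in receptors outside the synapse. Not every subunit of the family was analysed here.

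The deposited values are normalized log2 signals. Because a probe set gives some signal for a gene that is not transcribed, values were read beside 360 clusters of olfactory receptor genes, a large family not expected to be active in a glioblastoma line. The median of these clusters was between 3.48 and 3.58 on the 12 arrays, and their 95th percentile was between 5.15 and 5.41. A cluster was called above background when it exceeded that percentile on all 3 arrays of at least 1 treatment, which 14900 of the 21214 tested clusters (70.2%) did. The median of the tested clusters was between 6.35 and 6.40. Probes differ in how strongly they bind, so a position on this scale is not an amount of transcript, and values of different genes are set beside the background only.

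Of the 7 subunit genes, 2 were above background, GABRA3 and GABRD, and the other 5 lay inside the range of the olfactory receptors in every treatment. The 2 genes differed widely in position. GABRA3 was among the brightest clusters of the array, while GABRD was near the middle of the tested clusters.

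GABRA3, on chromosome X, encodes the α3 subunit. Its log2 values were 10.06, 9.89 and 10.06 with V, 10.06, 9.58 and 10.07 with 3α-THP, 10.17, 9.77 and 9.96 with P4, and 10.06, 9.77 and 10.07 with F, in the order of replicates 1, 2 and 3. All 12 values exceeded every olfactory receptor cluster on the same array and lay between the 94.1 and 96.7 percentile of the tested clusters. In each treatment the array numbered 2 was the lowest, and the ranges of the 4 treatments overlapped. The mean was 10.01 ± 0.099 with V, 9.90 ± 0.279 with 3α-THP, 9.97 ± 0.195 with P4 and 9.97 ± 0.169 with F (SD, n = 3 each).

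GABRA5, on chromosome 15, encodes the α5 subunit. Values were 5.01, 4.89 and 4.94 with V, 4.95, 4.98 and 4.99 with 3α-THP, 5.08, 4.79 and 4.77 with P4, and 4.59, 5.00 and 4.80 with F. They were above 84.2% to 93.9% of the olfactory receptor clusters, and on 0 of 12 arrays did GABRA5 pass their 95th percentile, so it was the closest to that level among the 5 genes under it. The 3 arrays of 3α-THP were the closest together (4.97 ± 0.020, SD, n = 3) and those of F the farthest apart (4.80 ± 0.207, SD, n = 3), and the treatments overlapped.

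GABRA2 and GABRA4, which encode the α2 and α4 subunits, lie near each other on chromosome 4 and were both at the bottom of the scale. GABRA2 was at 2.78, 3.00 and 2.88 with V, 2.92, 2.89 and 2.87 with 3α-THP, 2.82, 2.77 and 2.86 with P4, and 2.91, 2.69 and 2.86 with F. GABRA4 was at 3.32, 2.89 and 3.19 with V, 3.14, 3.12 and 3.19 with 3α-THP, 3.12, 3.14 and 2.96 with P4, and 3.05, 3.15 and 3.04 with F. Between 11.4% and 25.6% of the olfactory receptor clusters lay below GABRA2, and between 19.4% and 37.8% below GABRA4. Neither was above the middle of that family on any array, and for both genes the lowest and the highest vehicle array spanned most of the values of the other treatments.

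The β subunits, which take part in binding GABA and carry phosphorylation sites that regulate how many receptors stay at the membrane, were represented by GABRB1 and GABRB2. GABRB1, on chromosome 4, was at 3.04, 2.78 and 2.82 with V, 2.79, 2.81 and 2.93 with 3α-THP, 3.17, 2.89 and 3.01 with P4, and 3.05, 2.96 and 2.90 with F. GABRB2, on chromosome 5, was at 3.84, 3.56 and 3.71 with V, 3.79, 3.59 and 3.54 with 3α-THP, 3.999, 3.85 and 3.60 with P4, and 3.65, 3.80 and 3.53 with F. GABRB1 stood above 13.3% to 29.2% of the olfactory receptor clusters and GABRB2 above 50.3% to 69.7%, both with 0 of 12 arrays over the 95th percentile. For each gene the highest of the 12 values was the first P4 array, and the P4 arrays overlapped with those of the other treatments.

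GABRD, on chromosome 1, encodes the δ subunit. It was at 6.31, 6.17 and 6.26 with V, 6.32, 6.09 and 5.96 with 3α-THP, 6.12, 6.18 and 6.32 with P4, and 6.22, 6.13 and 6.15 with F. It was above the 95th percentile of the olfactory receptors on 12 of 12 arrays and above 99.2% to 99.7% of them, between the 42.2 and 49.2 percentile of the tested clusters. The lowest and the highest values came from 3α-THP and P4, and all 4 treatments overlapped.

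**Figure D1:**
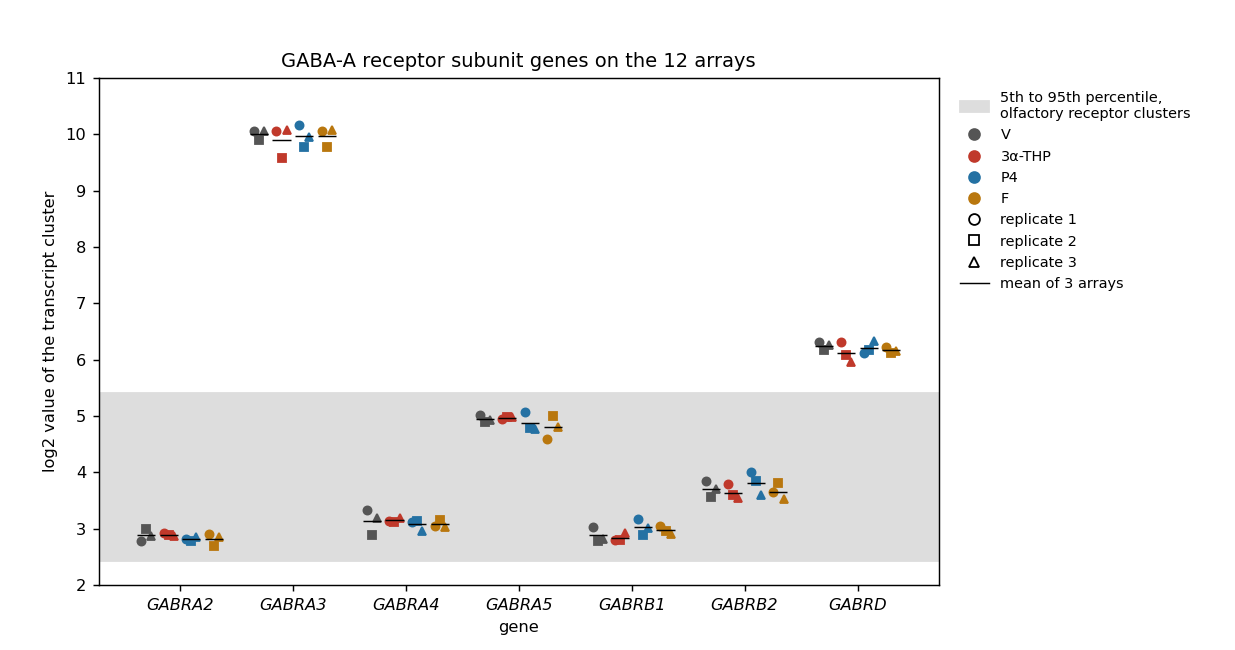
The log2 value of each of the 7 subunit genes (x axis) on each of the 12 arrays, coloured by treatment, with the shape giving the replicate number and a line for the mean of 3 arrays. The grey band runs from the lowest 5th percentile (2.43) to the highest 95th percentile (5.41) of the olfactory receptor clusters, and only GABRA3 and GABRD lie above it.

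Of the other GABA-A and rho subunit genes on a list drawn up for this family, 8 had a cluster of their own, and 2 of these were above background. GABRQ, which encodes the θ subunit, was between 9.39 and 9.63, and its mean stood at the 93.8 percentile of the tested clusters. GABRR2, a rho subunit of the retina, was between 5.19 and 5.62, close to the background level. GABRE (ε subunit) reached the background level on 2 of 12 arrays, and GABRA6, GABRG1, GABRG3, GABRR1 and GABRR3 on 0 of 12. None of the 8 passed a fold change over 1.5 with an unadjusted p under 0.05 with a steroid, and GABRQ differed from V by -0.08, 0.02 and -0.06 (SE 0.078) with 3α-THP, P4 and F on the log2 scale. The smallest p values of the 8 belonged to GABRR2 with 3α-THP (-0.14 ± 0.098) and to GABRR1 with P4 (-0.15 ± 0.10) and F (-0.20 ± 0.10), and the list's median log2 fold changes were -0.01, 0.01 and 0.03.

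**Figure D2:**
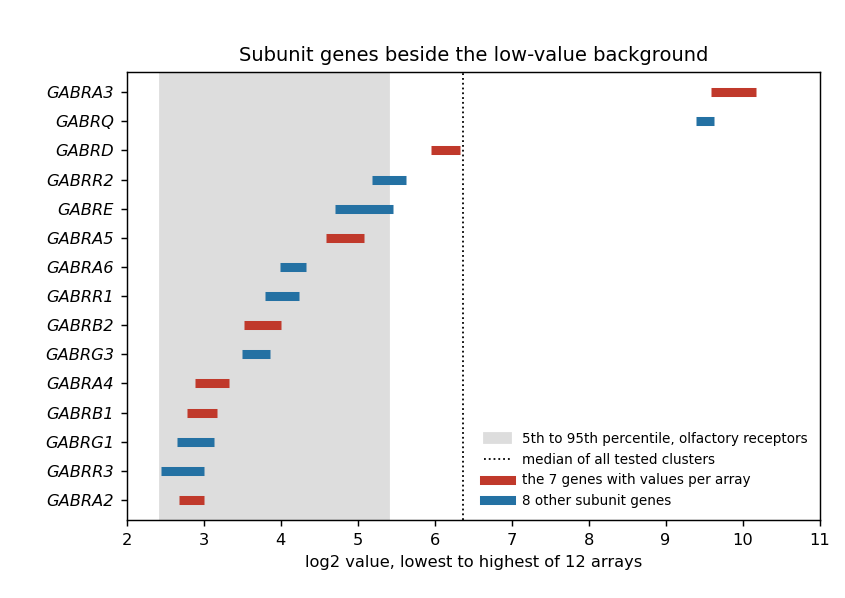
The lowest to highest log2 value over the 12 arrays (x axis) of the 15 subunit genes with a cluster of their own. The grey band is the 5th to 95th percentile of the olfactory receptor clusters and the dotted line the median of all tested clusters; GABRA3 and GABRQ lie far to the right, GABRD lies just left of the dotted line, and the others lie in or at the edge of the band.

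Many genes of this family lie side by side in the genome, and their levels were set out in RefSeq gene order (GRCh38.p14), counting only genes with a cluster of their own. On chromosome X, GABRA3 and GABRQ were direct neighbours and both among the brightest clusters. MAGEA10, on the other side of GABRA3, was between 4.29 and 4.85, and GABRE, the next gene, between 4.71 and 5.46. On chromosome 4, the run GABRG1, GABRA2, COX7B2, GABRA4 and GABRB1 held no gene that passed the background level on any array. The genes at its ends did so on 12 of 12 arrays, GNPDA2 between 6.75 and 7.12 and COMMD8 between 6.81 and 7.59. On chromosome 15, GABRA5 lay between GABRG3 (3.49 to 3.86) and ATP10A (4.85 to 5.17), both over the background level on 0 of 12 arrays, and the gene beyond ATP10A, the ubiquitin ligase gene UBE3A, was between 8.25 and 8.49. GABRB2 lay between ATP10B (3.78 to 4.15) and GABRA6 (3.996 to 4.32) on chromosome 5, all under the background level. GABRD lay between CFAP74 (6.21 to 6.67), over the background level on 12 of 12 arrays, and PRKCZ (5.12 to 5.37), over it on 5 of 12.

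RefSeq promoter windows of 300 bases (250 before the start of a transcript and 50 after) were at hand for GABRA2 (3 windows), GABRA4, GABRB1 and GABRB2. They were searched on both strands for the full cAMP response element (TGACGTCA), its core (TGACG, which is also part of the full element), a palindrome bound by C/EBP factors (TTGCGCAA) and the core bound by NRF-1 (CGCATGCG). The full element, present in 1.85% of 35116 windows of all genes, and the C/EBP palindrome, present in 0.151%, were in 0 of the 6 windows. The short core, present in 24.6% of all windows, was in 1 window of GABRA2. The NRF-1 core, present in 2.02% of all windows, was in the windows of both β subunit genes. The 80 bases before the start of both genes are shown because they share this motif, given in capitals, at nearly the same place; its first base is at -15 in GABRB1 (GRCh38.p14, chr4:47031487-47031566, plus strand) and at -12 in GABRB2 (chr5:161546726-161546805, minus strand).
GABRB1: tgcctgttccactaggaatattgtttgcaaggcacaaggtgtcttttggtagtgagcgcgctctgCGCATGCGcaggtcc
GABRB2: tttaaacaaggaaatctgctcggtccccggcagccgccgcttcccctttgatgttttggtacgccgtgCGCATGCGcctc
The match describes letters in these windows and says nothing of binding in U87 cells. The window of GABRB2 had 39.0% G and C, that of GABRB1 48.7% and that of GABRA4 66.0%. The 3 windows of GABRA2 had 71.3%, 52.7% and 51.7%. Genes at background thus had windows both poor and rich in G and C.

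The treatments were then compared to ask whether 3α-THP, its precursor or the inhibitor of its synthesis changed the transcripts of the receptor that 3α-THP acts on. No subunit gene was higher or lower with any steroid by the threshold of the study's methods, a fold change over 1.5 with an unadjusted p under 0.05. With 3α-THP against V, limma called 0 of the 7 genes, against 0.679% of all tested clusters. With P4 it called 0 of 7 against 0.0236% of all clusters, and with F 0 of 7 against 0.396%. By an unadjusted p under 0.05 alone, limma also called 0 of 7 genes in each of these comparisons, against 7.34% of all clusters with 3α-THP, 1.82% with P4 and 4.69% with F. Nor did the 3 arrays of a steroid lie wholly above or below those of V for any of the 7 genes, which they did for 11.3%, 5.44% and 9.11% of all clusters. With shares of this size, 0 of 7 is near what all genes of the array gave.

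With 3α-THP, the log2 fold changes against V ran from -0.13 ± 0.099 (SE) for GABRD to 0.03 ± 0.11 for GABRA5. Their median was -0.04, beside -0.03 for all tested clusters, and 3 of 7 were above 0. GABRD had the smallest adjusted p of all member comparisons (0.86, limma with Benjamini-Hochberg adjustment over all tested clusters). Its unadjusted limma p was 0.227, and the smallest of the members was 0.0925, for GABRB1 with 3α-THP against P4. Between arrays of the same number, 3α-THP minus V for GABRD was 0.02, -0.09 and -0.30, so that array 3 carried most of the difference. GABRA3, the brightest subunit gene, had a log2 fold change of -0.10 ± 0.14 with a 95% interval from -0.41 to 0.21.

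With P4, GABRB1 (0.14 ± 0.098) and GABRB2 (0.11 ± 0.12) had positive log2 fold changes, and the other 5 genes had values between -0.07 and -0.04. The median was -0.04, beside -0.01 for all clusters. In arrays of the same number, GABRB1 was above V by 0.14, 0.10 and 0.18, but its ranges with P4 and V overlapped and the limma adjusted p was 1. GABRA3 had -0.04 ± 0.14 and GABRD -0.04 ± 0.099.

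With F, the log2 fold change was negative for 6 of 7 genes, from -0.15 ± 0.11 for GABRA5 to -0.04 ± 0.14 for GABRA3, and was 0.09 ± 0.098 for GABRB1. The median was -0.05, beside -0.02 for all clusters. GABRD was below V in all 3 pairs of arrays of the same number, by 0.09, 0.05 and 0.11, and GABRB1 above V in all 3, with overlapping ranges in both. The adjusted p was 0.999 in limma for each of the 7 genes.

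These 3 comparisons share the vehicle arrays. Between steroids, limma called 0 of 7 genes for 3α-THP against P4, where 0.25% of all clusters were called, 0 of 7 for 3α-THP against F (0.0566%) and 0 of 7 for P4 against F (0.0519%). By an unadjusted p under 0.05, the counts were 0 of 7 against 3.96%, 0 of 7 against 2.29% and 0 of 7 against 2.87% of all clusters. The β subunit genes had the most negative values for 3α-THP against P4, which were given at the same dose. GABRB1 differed by -0.18 ± 0.098 and GABRB2 by -0.17 ± 0.12 on the log2 scale, and both were lower with 3α-THP in each of the 3 pairs of the same number. The adjusted p was 0.999 for both in limma, and both genes are at the level of the olfactory receptors. GABRA2 was the single gene whose arrays did not overlap between 2 treatments, at 2.87 to 2.92 with 3α-THP and 2.77 to 2.86 with P4. This difference was 0.08 ± 0.085, and 8.22% of all clusters had arrays that did not overlap in this comparison. For 3α-THP against F and P4 against F, 0 of 7 genes had arrays that did not overlap, against 6.6% and 8.07% of all clusters.

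The size of change that these arrays could have missed was read from the 95% intervals. All 42 intervals (7 genes in 6 comparisons) lay inside 1.5-fold in either direction, with bounds from 0.740 to 1.33 as a ratio. The standard errors were between 0.085 and 0.14. Intervals and errors are those of the fit that does not pair arrays by replicate number. For the 5 genes at background, the value holds little signal from the gene itself, and a change in the transcript would show on the array only once it rose above that level. The intervals therefore limit a change in transcripts at most for GABRA3 and GABRD. For GABRD this is less sure, since 70.2% of all tested clusters were above background by the same rule. How much of its value comes from its own transcript was not tested. For GABRA3, the ratio to V had an interval from 0.753 to 1.16 with 3α-THP, from 0.785 to 1.21 with P4 and from 0.785 to 1.21 with F. For GABRD these were 0.791 to 1.06, 0.838 to 1.13 and 0.814 to 1.09.

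**Figure D3:**
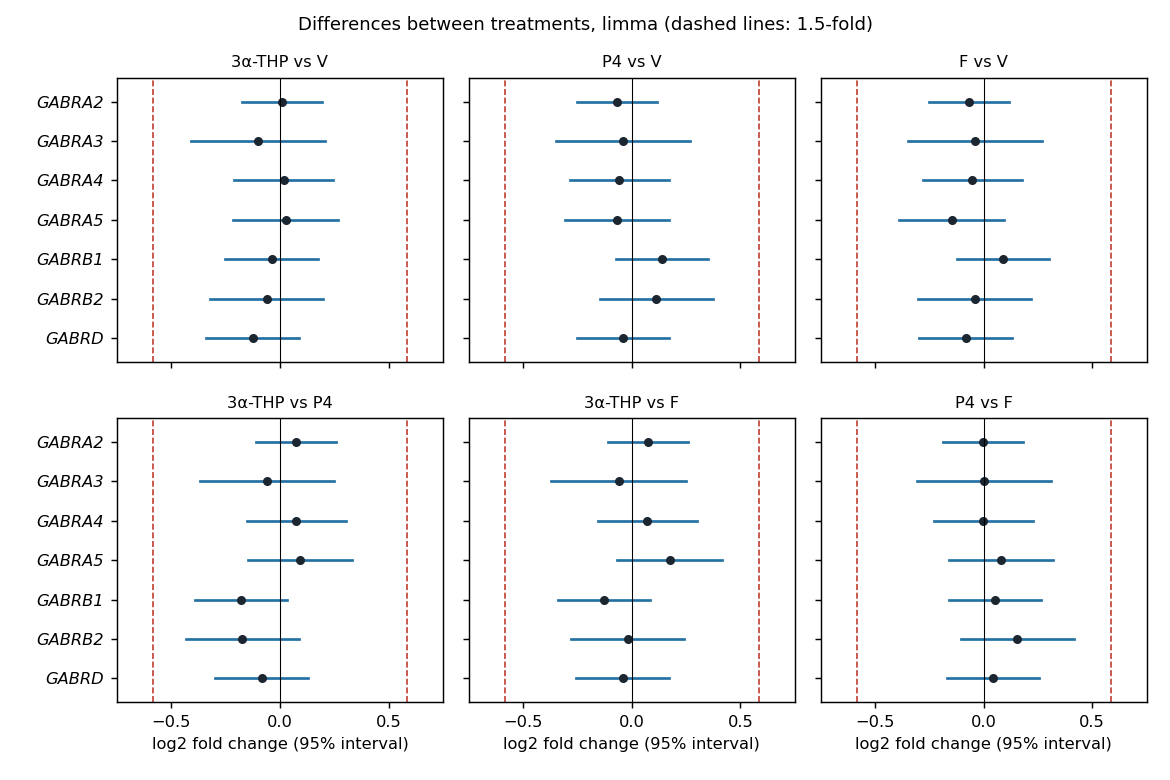
Log2 fold change (x axis, points) of the 7 subunit genes in the 6 comparisons between treatments, with the 95% interval of the limma fit as a line. All 42 intervals stay between the dashed lines at 1.5-fold in either direction, and all cross 0.

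The spread of GABRA3 followed the replicate number more than the treatment. Arrays numbered 2 were between 9.58 and 9.89 (9.75 ± 0.128, SD, n = 4), while those numbered 1 were between 10.06 and 10.17 and those numbered 3 between 9.96 and 10.07. In all 4 treatments the array numbered 2 was thus the lowest. The number took 79.5% of the sum of squares of GABRA3 over the 12 arrays and the treatment 4.74%, beside medians of 28.8% and 20.7% over all tested clusters. Such an order was not peculiar to GABRA3, since 892 of the tested clusters (4.2%) had all 4 arrays numbered 2 below all others and 1315 (6.2%) had them above. With the number taken into account as a block, the standard error of GABRA3 fell from 0.14 to 0.083, and 0 of 7 genes were called; with 1 array of each number in each treatment, the block leaves the fold changes themselves as they are. The arrays numbered 2 bore on the fold change of GABRA3 with 3α-THP, which was -0.10 with all arrays, 0.0040 without the 4 arrays numbered 2 and 0.06 without the second 3α-THP array alone. What the number stands for beyond a biological replicate was not tested. For GABRB2 the number took 41.4%, for GABRB1 30.9%, and for the other 4 genes 1.94% to 15.7%.

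**Figure D4:**
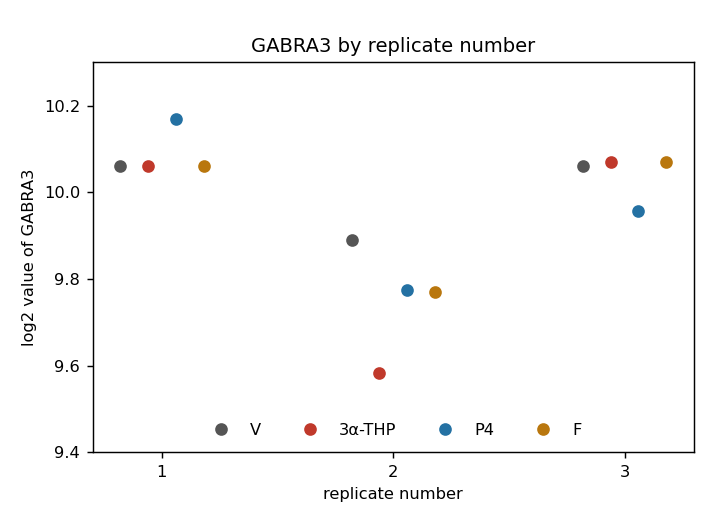
Log2 value of GABRA3 (y axis) on the arrays with replicate number 1, 2 and 3 (x axis), with 1 point for each treatment. The 4 arrays numbered 2, at 9.58 to 9.89, lie below the other 8, at 9.96 to 10.17.

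The genes that serve the receptor were described from lists of the pathway. Of the genes for proteins that assemble, move or anchor GABA-A receptors, 16 of 17 measured genes were above background. HAP1, between 5.44 and 5.67, was close to the background level. By the same rule 70.2% of all tested clusters were above background, a share that also stands beside the counts of the lists below. CLPTM1, which holds subunits back in the endoplasmic reticulum, was between 10.09 and 10.40, UBQLN1, which slows the breakdown of subunits, between 9.88 and 10.41, and GPHN, the scaffold gephyrin of inhibitory synapses, between 7.51 and 7.99. In this list 0 of 17 genes rose or fell past the threshold with any steroid, and median log2 fold changes were -0.03, -0.00 and -0.01 with 3α-THP, P4 and F. The smallest p of the list in all 3 comparisons belonged to GABARAPL1, a relative of the receptor-associated protein GABARAP that also serves autophagy. It was 8.15 on average with V and 7.74 with 3α-THP, a log2 fold change of -0.41 ± 0.13. These arrays did not overlap, as for 11.3% of all clusters in this comparison. In limma the adjusted p of GABARAPL1 was 0.52. With P4 it was -0.26 ± 0.13 and with F -0.28 ± 0.13, with adjusted p values of 1 and 0.999 in limma. GABARAP itself differed from V by -0.25 ± 0.087 with 3α-THP, by -0.01 with P4 and by -0.16 with F. With 3α-THP, 2 of the 17 genes had an unadjusted limma p under 0.05, against 7.34% of all clusters.

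Of the genes that make, break down or carry GABA, 4 of 9 were above background, and 0 of 9 passed the threshold with any steroid. GAD1, an enzyme that makes GABA from glutamate, was between 5.51 and 5.87, just over the background level, and GAD2, which catalyses the same step, was between 3.75 and 4.33, within it. GLUL, glutamine synthetase, was the brightest of the list, between 10.62 and 11.20. ABAT, the transaminase that breaks GABA down, had the smallest p with 3α-THP (-0.26 ± 0.087, limma adjusted p 0.56) and with P4 (-0.21 ± 0.087, limma adjusted p 1), and in both comparisons its arrays did not overlap with V. In these comparisons 11.3% and 5.44% of all clusters had arrays that did not overlap. With F, the GABA transporter gene SLC6A13 had the smallest p, at 0.15 ± 0.10 (limma adjusted p 0.999). Median log2 fold changes of the list were -0.09, -0.01 and -0.06 in the same order of steroids.

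The effect of GABA-A receptors on a cell depends on its chloride gradient. Of the cotransporters, kinases and channels that bear on it, 7 of 9 were above background. SLC12A2, the cotransporter that brings chloride into cells, was between 7.02 and 7.52, while SLC12A5, which exports chloride in mature neurons, was between 3.59 and 4.12, inside the background. None of the 9 passed the threshold with any steroid, and the median log2 fold changes were -0.02, -0.03 and -0.02. The smallest p values belonged to SLC12A4 with 3α-THP (-0.19 ± 0.15) and to SLC12A7 with P4 (0.13 ± 0.094) and F (0.10 ± 0.094), with limma adjusted p values of 0.85, 1 and 0.999.

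Other receptors for inhibitory transmitters gave 0 called genes too. The GABA-B receptor, which is not a channel but couples to G proteins, had 4 of 5 genes above background, with GABBR1 between 6.15 and 6.86, and median log2 fold changes of -0.08, 0.02 and -0.06 with 3α-THP, P4 and F. Its smallest p values were those of KCTD8 with 3α-THP (-0.10 ± 0.096) and of KCTD16 with P4 (-0.11 ± 0.12) and F (0.22 ± 0.12). Of the glycine receptor subunit genes, 1 of 4 was above background, GLRB, which encodes the β subunit and was between 6.07 and 6.54, and the list's medians were -0.08, -0.05 and -0.08. GLRB differed from V by -0.22 ± 0.091 with P4 (limma adjusted p 1), with arrays that did not overlap, and GLRA2, at background, by -0.23 ± 0.14 with 3α-THP and -0.26 ± 0.14 with F. DBI, the source of peptides that act on the benzodiazepine site, was between 9.06 and 9.55 and differed by -0.24 ± 0.11 with 3α-THP, with arrays that did not overlap (limma adjusted p 0.69), and by -0.11 ± 0.11 with P4. TSPO, the mitochondrial translocator protein linked to steroid synthesis, was between 6.77 and 7.14 and differed by -0.20 ± 0.088 with F, with arrays that did not overlap and a limma adjusted p of 0.999. Arrays did not overlap with V for 11.3%, 5.44% and 9.11% of all clusters with 3α-THP, P4 and F.

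**Figure D5:**
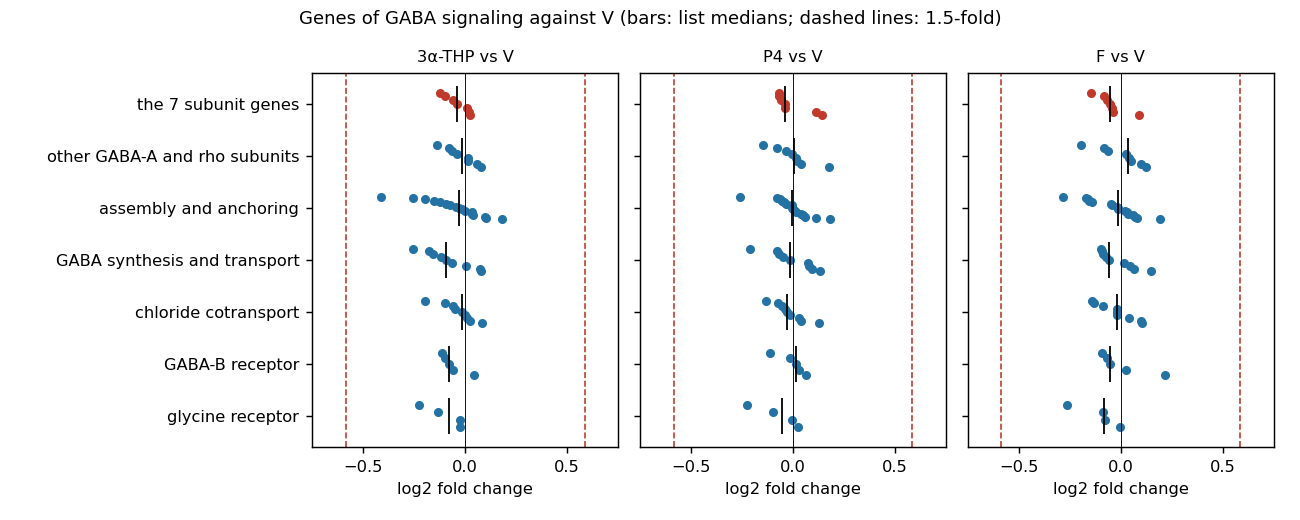
Log2 fold change against V (x axis) of each gene of 7 groups of GABA and glycine signaling, with a panel for each steroid and a bar for the median of each group. Points between the dashed lines are within 1.5-fold, which holds for every gene drawn, and the point farthest left is GABARAPL1 with 3α-THP at -0.41.

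Marker genes of several cell types were also set beside the background. Of 10 astroglial and glioma markers, 6 were above background, among them the intermediate filament gene VIM, the adhesion receptor gene CD44 and the glutamate transporter gene SLC1A3, at the 99.8, 99.4 and 93.5 percentile of the tested clusters. GFAP was at the 46.1 percentile and above the background level on 12 of 12 arrays. NES and FABP7 were at the 42.0 and 30.9 percentile. S100B, SOX2, AQP4 and ALDH1L1 were above it on 0 of 12. Of 10 neuron markers 4 were above background. They were SNAP25, RBFOX3, NEFM and SYT1 (86.8, 42.5, 28.9 and 28.2 percentile), of which NEFM and SYT1 passed the background level on 5 of 12 arrays each. NEFL passed the background level on 1 of 12 arrays, and STMN2, SLC17A6, SLC17A7, DCX and TBR1 on 0 of 12. Of the oligodendrocyte markers 3 of 5 and of the microglia and leukocyte markers 1 of 5 were above background. These were SOX10, OLIG2 and MOG (46.6, 34.9 and 31.3 percentile) and CSF1R (57.3 percentile). Since 70.2% of all tested clusters were above background, the counts do not tell cell types apart. None of these lists had a gene past the threshold with a steroid, and their median log2 fold changes lay between -0.07 and 0.04. The smallest p values with 3α-THP, P4 and F belonged to SYT1 (0.31 ± 0.12), RBFOX3 (0.33 ± 0.11) and RBFOX3 (0.33 ± 0.11) among neuron markers, to NES (-0.17 ± 0.11), FABP7 (-0.09 ± 0.13) and AQP4 (-0.11 ± 0.11) among astroglial markers, to MOG (0.06 ± 0.14) and OLIG2 (-0.18 ± 0.11 and -0.12 ± 0.11) among oligodendrocyte markers, and to CSF1R (-0.24 ± 0.11 and -0.11 ± 0.11) and CX3CR1 (0.21 ± 0.12) among microglia markers. The arrays of SYT1 with 3α-THP and of RBFOX3 with F did not overlap with those of V, as for 11.3% and 9.11% of all clusters. In bulk RNA of a culture, a change in the number of cells of a kind and a change in RNA per cell cannot be told apart.

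The genes whose values moved most like those of a subunit gene were found by Pearson's r over the 12 arrays among 19459 other clusters with 1 gene name. For GABRA3 these were PPP1R3C, a regulator of glycogen synthesis (r = 0.97), and CFI, a complement protease (r = 0.97), and r was 0.91 and 0.93 without the 2 arrays farthest from the median of GABRA3. For GABRD they were NPDC1 (r = 0.94) and FLT1 (r = 0.94), at the 38.6 and 6.31 percentile of the tested clusters on average. For GABRA5 they were DSTN and MILR1, for GABRA2 DDI1 and HAVCR2, and for GABRA4 LINC01854 and CAPN12. For GABRB1 they were the olfactory receptor gene OR5K3 and ZBTB48, and for GABRB2 ARID1B and CAND2. All of these had r between 0.84 and 0.91. Without the 2 arrays farthest from the median of the subunit gene, their r ran from 0.69 (GABRA2 and DDI1) to 0.92 (GABRB2 and ARID1B). The r values over the 12 arrays are the highest of many values over few arrays, and the arrays share treatments and replicate numbers. Among the subunit genes themselves, r over the 12 arrays ran from -0.56 to 0.50 in the 21 pairs, with a median of 0.14.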

How the data were processed

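RNA of U87 cells (12 samples, 4 treatments, 3 each) was hybridised to 1-colour arrays. The study's methods name quantile normalization in the Transcriptome Analysis Console and, separately, RMA in R, while the labels name Affymetrix Expression Console 1.4; which of these the authors used for the deposited table is not stated. The deposited series table holds 1 log2 value for each of 33297 transcript clusters and array, used here as deposited, with no missing value. Clusters were named through GEO's platform annotation.

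Treatments were compared with limma 3.58.1 in R 4.3.3 (1 mean per treatment, all 12 arrays, 6 contrasts, Benjamini-Hochberg adjustment), fitted on the 21214 clusters with a gene name and checked on simulated data with known changes. The simulated noise was independent between arrays, so that check does not cover arrays of the same number that deviate together. The threshold was that of the methods, a fold change over 1.5 and an unadjusted p under 0.05. The number of arrays limits the precision. Nothing states whether replicates were separate cultures beyond the word biological, so p-values measure the spread between these samples.

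The 7 genes and the gene lists were chosen with earlier results of these data known. Genes of other lists are named when they pass the threshold or have the list's smallest p in a comparison with V. For genes picked by a small p, arrays that do not overlap are no separate support. Other genes are named for their level, place or role and were chosen after their values were seen. Arrays of the same number deviated together (18 pairs, r 0.13 to 0.63, median 0.40). The numbers were therefore taken to pair the arrays, and the block was run as an alternative. In 36 pairs of different number the median was -0.25. That value is no separate support, since each treatment was centred on its own mean before r was taken. Errors, intervals and p values are those of the fit without the block unless the block is named, because the methods state an unpaired analysis. With the block, 0 of the 42 member comparisons had an unadjusted p under 0.05 in limma. For GABRB1 with 3α-THP against P4 the p was 0.054 with the block and 0.093 without it, both in limma. Other alternatives were the samples in the fit, the methods' variance analysis, normalizing again, the clusters tested, the variance prior, array weights and arrays left out. Promoter bases and gene order are from RefSeq, GRCh38.p14; promoters of GABRA3, GABRA5 and GABRD were not analysed here. Versions of other tools were Python 3.11.15, numpy 2.4.6, pandas 2.3.3 and matplotlib 3.10.9.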

Additional observations from a re-analysis of the deposited data

How the results depend on the processing

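Over 22 alternatives, 12 of which left out 1 array each, limma or the methods' variance analysis called 0 of the subunit genes by the threshold in all 894 member comparisons, and 0 had an adjusted p under 0.05 (the smallest was 0.41). The count of called genes was 0 in each of the 6 comparisons with the replicate block as well as without it. The block could not add a call, because it leaves the fold changes as they are. The largest of them in size was 0.18 on the log2 scale, where 1.5-fold is 0.585. An unadjusted p under 0.05 appeared in 5 of the 894, all in limma fits that left out 1 array. These were GABRD with 3α-THP (-0.23 without the first 3α-THP array), GABRA5 with F (-0.25) and for 3α-THP against F (0.28, both without the second F array), and GABRB1 (-0.25 without the second P4 array) and GABRB2 (-0.28 without the third P4 array) for 3α-THP against P4. Of 447 fold changes against V, 25 had the other sign under an alternative and 11 moved by a standard error or more. All were of genes not called, and the cause was not tested. Many of the 447 could not move, so these counts do not measure stability. The block, the samples in the fit, the variance analysis, the variance prior and the clusters tested leave a fold change as it is. So does leaving out an array of a treatment outside the comparison. The fit on clusters above background holds 2 of the 7 genes, GABRA3 and GABRD. A mean over several clusters of a gene could not be run, since each gene has 1 cluster. Signal over background limits what can be said of GABRA2, GABRA4, GABRA5, GABRB1 and GABRB2.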
